A study of Homo sapiens with 8 samples.

Results

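The genes examined here are the 446 loci of chromosome 8 that had a total of at least 80 counts over the 8 libraries, out of 882 chromosome 8 genes in the deposited tables and 25343 genes with a position in all. They were split by the hg19 start coordinate into 152 genes of the short arm (8p, start under 45 Mb) and 294 genes of the long arm (8q). All 446 passed the filter on low counts that left 14016 genes for testing genome-wide. Just inside the limit of 80 counts lay LOC100507156 and FOXH1, with 89 counts each, and just outside it lay LINC00051 and PTP4A3, with 79 each. The last short-arm gene was HGSNAT (start 42995592) and the first long-arm gene SPIDR (start 48173470), so no member started near the boundary of the arms. The chromosome was selected on the log2 fold changes of its genes from WT in these same libraries. Every value against WT below is therefore a description, given without a p-value, and p-values are printed only between the 3 modified lines. Where genes are counted as lower or higher than WT, the threshold of the test serves only to describe how many lay past it, and nothing is concluded from the count.

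RNA was sequenced from MDA-MB-231, an established human cell line from a triple-negative breast carcinoma, with an abnormal karyotype, in 4 groups of 2 libraries. WT was the unmodified line and SUN2KO the line with SUN2 knocked out. Kashlid carried a SUN2 without residues 569 to 585, made to cut its link to Nesprin-2G, and LBD a SUN2 without residues 1 to 139, made to cut its link to the lamins. It is not stated in the labels whether the truncations were placed in SUN2KO or WT cells, whether a line was grown from 1 clone, or whether the 2 replicates were separate cultures. The p-values therefore reflect the spread among these 8 libraries alone, and that spread may be technical. Total counts ran from 16570099 to 18814795 per library. SUN2 transcript stood at 82.8 ± 1.30 CPM (read counts per library, scaled; ± SD over 2 libraries) in WT, 28.0 ± 3.29 for SUN2KO, 36.3 ± 1.28 for Kashlid and 33.6 ± 1.49 for LBD. It set WT apart from the other 3 lines, and it does not check the labels among those 3, which lay close together.

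The arms of chromosome 8 are often unbalanced in breast carcinomas: material of the short arm is frequently lost, and the long arm, which carries the MYC oncogene, is frequently gained. SUN2 is an inner nuclear membrane protein that joins nesprins to the nuclear lamina, and it is encoded on another chromosome. A transcript level can follow the number of gene copies as well as gene regulation. DNA was not measured here, so whether a copy number difference accounts for any value below was not tested.

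Short-arm transcripts took 0.769 and 0.788% of all counts in the 2 WT libraries. The same genes took 0.611 and 0.612% for SUN2KO, 0.623 and 0.610% for Kashlid, and 0.622 and 0.624% for LBD. All 6 libraries of the modified lines lay below both WT libraries, and the 3 lines lay close together. Long-arm transcripts took 2.30 and 2.31% in WT, 2.09 and 2.09% for SUN2KO, 2.11 and 2.1% for Kashlid, and 2.04 and 2.06% for LBD. The groups again did not overlap between WT and the modified lines. The ratio of long-arm to short-arm counts was 2.99 and 2.93 in WT, 3.42 and 3.42 for SUN2KO, 3.38 and 3.44 for Kashlid, and 3.28 and 3.31 for LBD, so the short arm was lower relative to the long arm in all 6 libraries of the modified lines. In RNA from a whole culture, a lower level in every cell and a mixture of cells with different levels cannot be told apart.

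The median short-arm gene stood at 81.4% of its WT level in SUN2KO, 81.7% for Kashlid and 82.1% for LBD. As log2 fold changes these medians were -0.30, -0.29 and -0.28, with quartiles from -0.46 to -0.15, from -0.54 to -0.13 and from -0.49 to -0.13. Long-arm medians were -0.20 for SUN2KO, -0.21 for Kashlid and -0.24 for LBD, or 87.1, 86.5 and 84.8% of WT. Over all 14016 tested genes the medians were 0.00, 0.01 and 0.00. Subtracting the long-arm median from the short-arm median left -0.10 with SUN2KO, -0.08 with Kashlid and -0.05 with LBD. The 3 comparisons share the 2 WT libraries, so a departure of WT and a departure common to the 3 lines cannot be told apart.

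Single libraries showed the same levels as the group means. Against the mean of the 2 WT libraries, the short-arm median log2 ratio was -0.011 and 0.011 in WT itself, -0.279 and -0.276 for SUN2KO, -0.281 and -0.296 for Kashlid, and -0.280 and -0.288 for LBD. For the long arm it was 0.004 and -0.004 in WT, -0.186 and -0.186 for SUN2KO, -0.188 and -0.215 for Kashlid, and -0.219 and -0.237 for LBD. With the mean of all 8 libraries as the reference instead, the SD of these medians between libraries of a group, pooled over the 4 groups, was 0.018 for the short arm and 0.011 for the long arm. Over all tested genes the library medians stayed between -0.001 and 0.004.

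**Figure D1:**
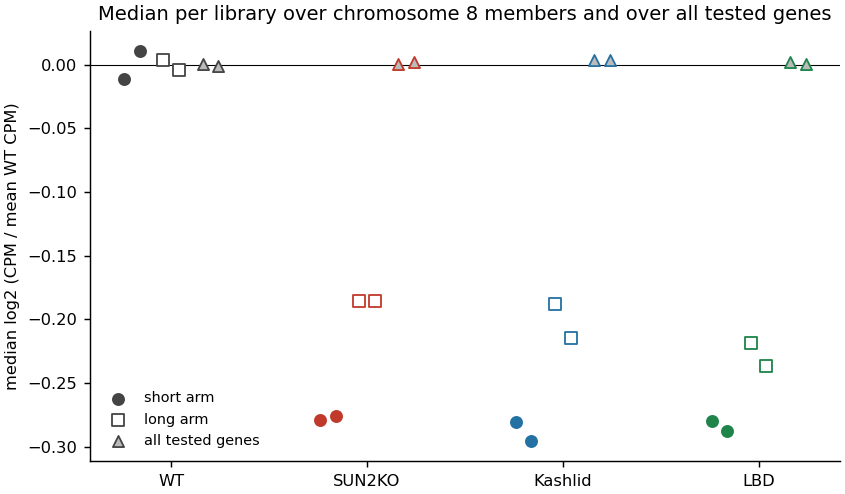
Median log2 ratio to the mean of the 2 WT libraries (vertical axis) in each of the 8 libraries, for the 152 short-arm genes, the 294 long-arm genes and all 14016 tested genes. The 6 libraries of the modified lines lie between -0.296 and -0.276 for the short arm and between -0.237 and -0.186 for the long arm, while all tested genes stay near 0.

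The shift was spread over most genes rather than carried by a few. On the short arm, 86.8% of the genes had a negative log2 fold change in SUN2KO, 84.9% for Kashlid and 86.2% for LBD. On the long arm the shares were 74.8, 73.5 and 79.6%, beside 49.7, 49.1 and 49.7% of all tested genes. In SUN2KO, 98 of the 152 short-arm genes lay between -0.5 and 0, 25 between -1 and -0.5, and 9 below -1, while 3 lay above 0.5. A log2 fold change of 1 or more was found in 0 short-arm and 9 long-arm genes in SUN2KO, 2 and 10 for Kashlid, and 1 and 7 for LBD.

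**Figure D2:**
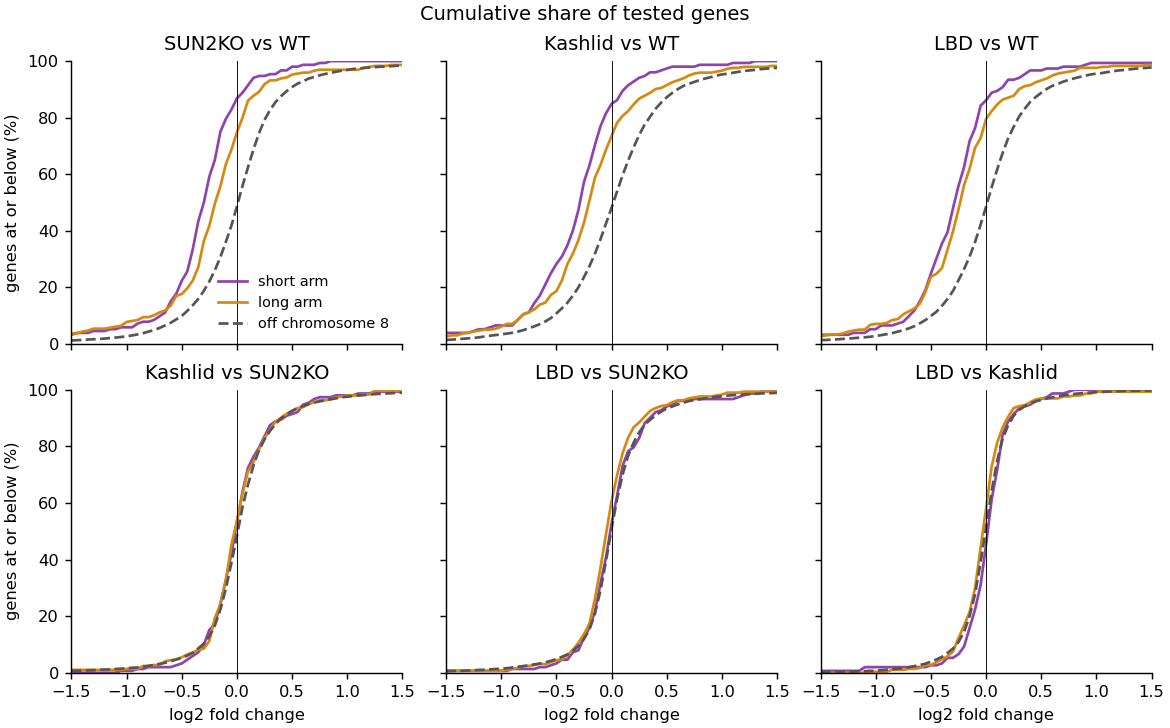
Cumulative share of genes (vertical axis) against the log2 fold change (horizontal axis) for short-arm members, long-arm members and tested genes off chromosome 8 (dashed), in 1 panel for each of 6 comparisons. Against WT the short-arm curve reaches 86.8% at 0 in SUN2KO, where the dashed curve reaches 48.7%, and between lines the 3 curves lie close together.

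By edgeR's quasi-likelihood test (adjusted p under 0.05 over all genes), 84 of the 152 short-arm genes were lower and 4 higher in SUN2KO than in WT, beside a background of 19.1% lower and 17.5% higher among all tested genes. In Kashlid 84 were lower and 6 higher (background 22.7% and 21.7%), and in LBD 85 were lower and 5 higher (21.0% and 19.0%). Of the 294 long-arm genes, 121 were lower and 17 higher in SUN2KO, 129 and 27 for Kashlid, and 141 and 24 for LBD. Since these contrasts chose the chromosome, the counts are descriptions only. In SUN2KO against WT, the short-arm count of 88 fell to 55 without SUN2KO replicate 2. In the authors' deposited tables the arm medians were -0.30 and -0.20 for SUN2KO, -0.29 and -0.21 for Kashlid, and -0.28 and -0.24 for LBD. The authors' deposited tables passed fewer short-arm genes: 66 lower and 0 higher in SUN2KO, 64 and 3 for Kashlid, and 66 and 4 for LBD. The share of all genes passing in those tables was not counted, so these numbers have no background of their own.

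Chromosome 8 did not stand alone. Ranked by the median log2 fold change of their tested genes, it was the 4th lowest of 23 chromosomes in SUN2KO (-0.24), the 3rd lowest in Kashlid (-0.24) and the 3rd lowest in LBD (-0.26). Chromosome 21 was lowest in each, at -0.36, -0.38 and -0.39. Chromosome 7 stood at -0.29, -0.24 and -0.22, and chromosome 4 at -0.26, -0.26 and -0.28. These values come from the same contrasts and were not tested against each other.

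Along the chromosome, 28 windows of 5 Mb held at least 5 members, and the median of every one of them was below 0 in each comparison with WT. Short-arm windows ran from -0.38 to -0.19 for SUN2KO, from -0.41 to -0.13 for Kashlid and from -0.46 to -0.13 for LBD. The window at 35 to 40 Mb, which overlaps the 8p11-p12 region described below, was the lowest of the short arm in all 3 lines (19 genes; -0.38, -0.41 and -0.46). The window nearest the short-arm end, at 0 to 5 Mb, was the least shifted of the short arm in SUN2KO and Kashlid (6 genes; -0.19, -0.13 and -0.22).

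The long arm was less even than the short arm. Windows from 50 to 65 Mb were deep: at 50 to 55 Mb the 7 genes had medians of -0.50, -0.47 and -0.58 for SUN2KO, Kashlid and LBD, and at 55 to 60 Mb the 13 genes had -0.44, -0.42 and -0.55. At 60 to 65 Mb the 5 genes had -0.35, -0.64 and -0.56. A second deep window lay at 85 to 90 Mb, where the 8 genes had medians of -0.73, -0.46 and -0.54. From 95 Mb on, no window with at least 5 members had a median below -0.31, and the last stretches of the arm were near WT: -0.04, -0.04 and -0.06 over the 40 genes at 140 to 145 Mb, and -0.15, -0.11 and -0.15 over the 46 genes that start beyond 145 Mb. The window at 105 to 110 Mb (7 genes) was also near WT, at -0.06, -0.01 and -0.11.

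**Figure D3:**
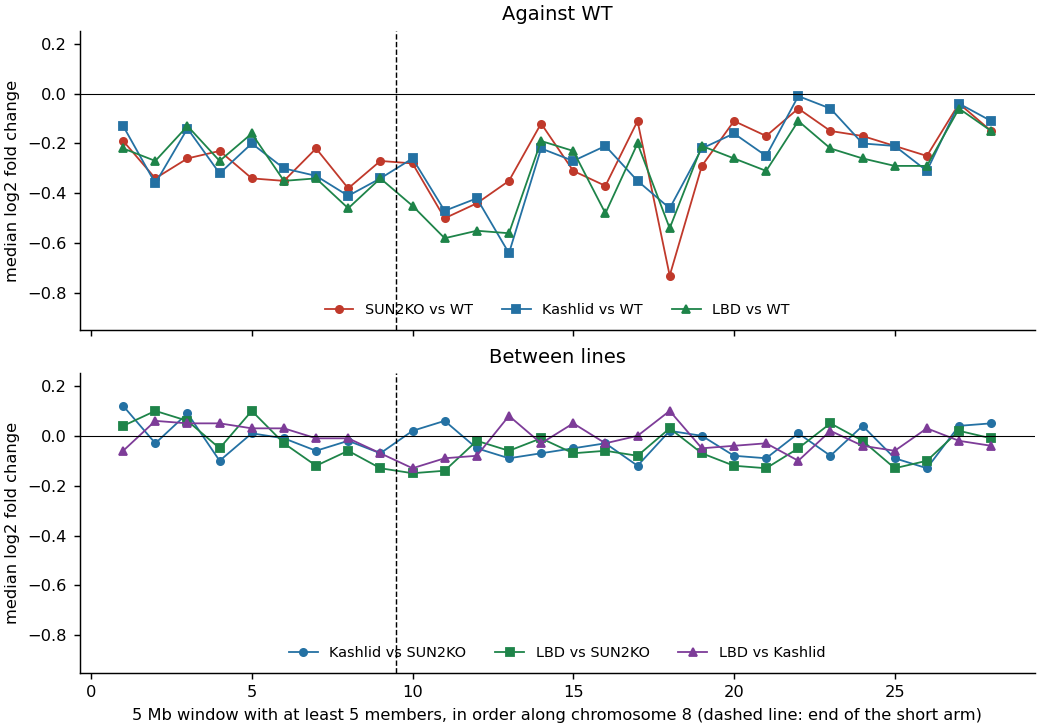
Median log2 fold change (vertical axis) of members in 5 Mb windows, numbered in order along chromosome 8 (horizontal axis), with the comparisons against WT above and those between modified lines below. The dashed line marks the end of the short arm. All 28 windows with at least 5 members lie below 0 against WT, and between lines they lie between -0.15 and 0.12.

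Single genes scattered widely around the window medians. The plot of members in chromosomal order shows most genes in a band just under 0, crossed by a few genes far below it.

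**Figure D4:**
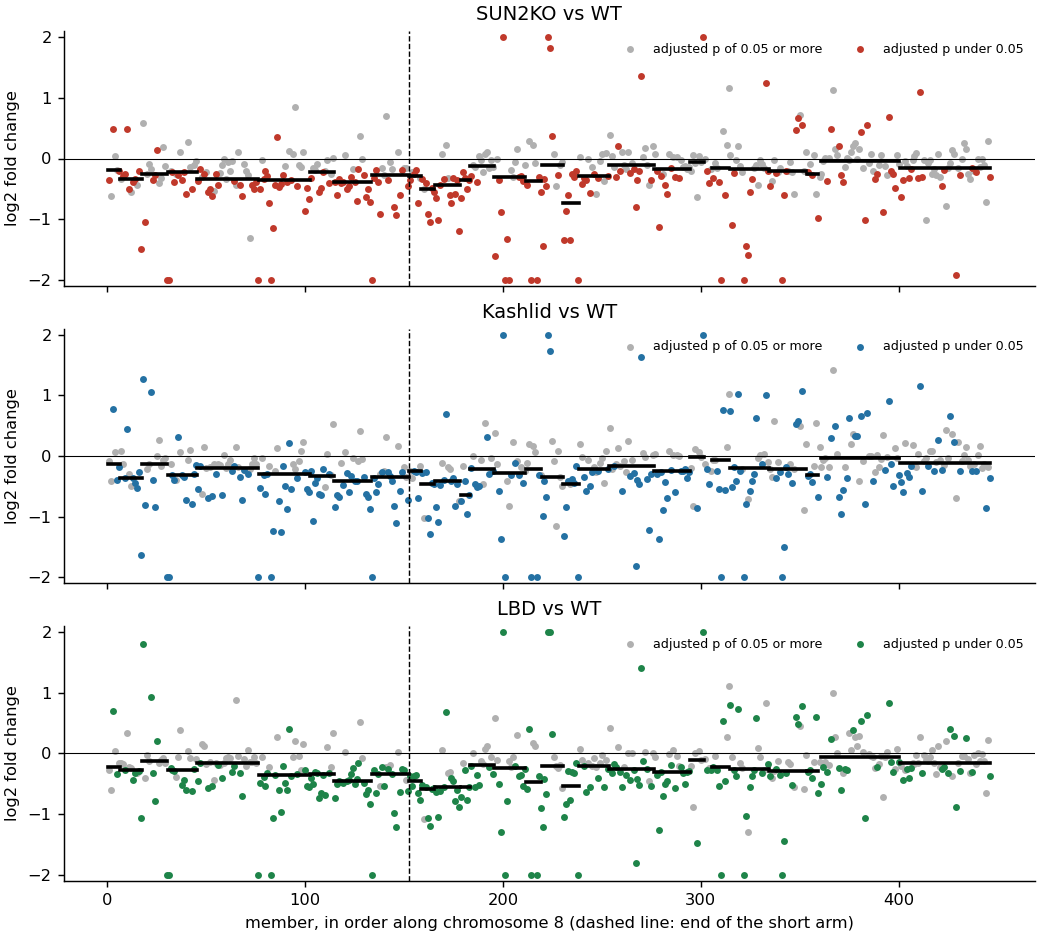
Log2 fold change from WT (vertical axis, with values beyond the axis drawn at its edge) of each of the 446 members in chromosomal order (horizontal axis, rank along the chromosome), in 1 panel per line, coloured where the adjusted p was under 0.05 and with black bars at the window medians. Short-arm genes have medians of -0.30, -0.29 and -0.28 and long-arm genes medians of -0.20, -0.21 and -0.24 for SUN2KO, Kashlid and LBD.

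The short-arm shift was present at every level of expression and gene size examined. In SUN2KO, the 51 short-arm genes with the highest mean level (45.2 to 227 CPM) had a median of -0.32, the middle 50 genes -0.26 and the lowest 51 genes -0.34. In Kashlid the corresponding medians were -0.32, -0.29 and -0.20, and in LBD -0.32, -0.31 and -0.22. Split by level in the same way, all tested genes had medians of -0.03, 0.02 and 0.07 in Kashlid. In LBD all tested genes had -0.02, 0.01 and 0.02. The weakly expressed short-arm genes were thus less shifted in these lines, but weakly expressed genes also stood highest over all tested genes. Whether the short arm differed from all tested genes in this was not tested. By length of the gene on the genome, the shortest short-arm genes had medians of -0.35, -0.32 and -0.32 and the longest -0.23, -0.27 and -0.26. Protein-coding genes made up most members and were shifted on both arms: 145 on the short arm had medians of -0.29, -0.30 and -0.30, and 267 on the long arm -0.20, -0.21 and -0.24. The 16 long noncoding RNAs of the long arm stood on the other side of 0, at 0.10, 0.18 and 0.15. Other gene types were few. Transcribed pseudogenes had medians of 0.06, 0.18 and 0.02 on the short arm (2 genes) and -0.41, -0.50 and -0.39 on the long arm (2 genes). Members without a matched gene type had medians of -0.48, -0.14 and -0.15 on the short arm (4 genes) and -0.79, -0.42 and -0.31 on the long arm (5 genes).

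A few genes of the short arm were nearly silent in the modified lines. TUSC3, a subunit of the oligosaccharyltransferase that adds N-glycans in the endoplasmic reticulum, lies at 15397596 to 15624158. Its level was 54.3 and 63.2 CPM in the WT libraries, 2.06 and 1.34 for SUN2KO, 1.45 and 2.11 for Kashlid, and 2.72 and 2.27 for LBD. All 6 modified libraries were far below WT, at 2.90, 3.03 and 4.26% of it by the fit. DLC1, a gene proposed as a tumour suppressor, lies at 12940872 to 13372429. It had 109 and 141 counts in WT, 0 and 1 for SUN2KO, 0 and 1 for Kashlid, and 0 and 0 for LBD. With a floor of 3 counts over both libraries in place of a count of 0, DLC1 was at least 82.3-fold lower in LBD. The ratio was 269 for SUN2KO with a 95% counting interval of 47.9 to 10700, and 249 for Kashlid with an interval of 44.4 to 9890. Such intervals cover counting error only, and each ratio rests on 1 count. The fitted log2 fold change of DLC1 was -6.89 without SUN2KO replicate 1 and -9.97 without replicate 2, and for Kashlid -6.78 without Kashlid replicate 1 and -9.99 without replicate 2. The larger of each pair is fitted on 0 counts in that line and is no bound.

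STC1, the secreted glycoprotein hormone stanniocalcin 1 (23699434 to 23712320), differed between the modified lines as well. Its level was 44.9 and 56.6 CPM in WT, 0.162 and 1.02 for SUN2KO, 9.02 and 16.1 for Kashlid, and 3.53 and 18.8 for LBD. No modified library reached the WT range, and the 2 SUN2KO libraries lay below all others. Relative to WT, the fit gave SUN2KO a log2 fold change of -6.40 ± 0.55 (SE), Kashlid -2.02 ± 0.34 and LBD -2.20 ± 0.35. In a fit with DESeq2, the Kashlid and LBD differences from WT did not pass the threshold. The SUN2KO value was -5.62 without SUN2KO replicate 1 and -8.23 without replicate 2, and the LBD value -1.43 without LBD replicate 1 and -3.84 without replicate 2. Some less extreme short-arm genes, such as DPYSL2 and MSRA, were similar across lines, while others, given below, differed between lines. DPYSL2, a microtubule-binding protein of neurite outgrowth, was at 143 and 149 CPM in WT, 66.0 and 65.4 for SUN2KO, 61.9 and 61.6 for Kashlid, and 72.2 and 66.5 for LBD. MSRA, a methionine sulfoxide reductase, had log2 fold changes of -1.49 ± 0.33, -1.64 ± 0.34 and -1.07 ± 0.32.

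The genes around the silent ones were only mildly lower. These neighbours were examined after the values had been seen. The 10 members nearest DLC1 had medians of -0.24 for SUN2KO, -0.15 for Kashlid and -0.20 for LBD, although TUSC3 is among them. The 10 nearest TUSC3, DLC1 included, had medians of -0.27, -0.15 and -0.20. Around STC1 the medians were -0.36, -0.25 and -0.15. None of these medians came near the values of the 3 genes themselves.

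Few short-arm genes were higher than in WT. FBXO25, an F-box protein of a ubiquitin ligase near the short-arm end, had log2 fold changes of 0.48 ± 0.17 for SUN2KO, 0.78 ± 0.17 for Kashlid and 0.70 ± 0.17 for LBD. PTK2B, a focal adhesion kinase relative, had 0.35 ± 0.11 for SUN2KO, 0.14 ± 0.11 for Kashlid and 0.27 ± 0.11 for LBD. SCARA5, a ferritin receptor, reached 0.13 ± 0.07, 0.22 ± 0.07 and 0.40 ± 0.07. CTSB, the lysosomal protease cathepsin B, lay close to WT at 0.14 ± 0.05, 0.00 ± 0.05 and 0.20 ± 0.05. In a fit with DESeq2, the SUN2KO differences of FBXO25, PTK2B and CTSB from WT did not pass the threshold.

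Long-arm genes held their own near-silent loci. MMP16, a membrane-anchored matrix metalloprotease (89049460 to 89339717), had 119 and 137 counts in WT, 3 and 2 for SUN2KO, 0 and 0 for Kashlid, and 0 and 1 for LBD. It was at least 85.1-fold lower in Kashlid, and the ratio in LBD was 253 with an interval of 45 to 10000. The LBD ratio rests on 1 count, and the fitted log2 fold change was -6.79 without LBD replicate 1 and -10.03, on 0 counts, without replicate 2. SNTB1, a syntrophin of the dystrophin complex (121547985 to 121824309), had 119 and 125 counts in WT, 5 and 5 for SUN2KO, 1 and 0 for Kashlid, and 0 and 2 for LBD. CRISPLD1, a secreted cysteine-rich protein, was at 12.8 and 12.7 CPM in WT, 0.758 and 0.806 for SUN2KO, 0.694 and 0.587 for Kashlid, and 0.405 and 0.538 for LBD. In none of these genes did a modified library approach WT.

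ZFHX4, a zinc finger homeodomain transcription factor, had 92 and 82 counts in WT, 4 and 6 for SUN2KO, 7 and 0 for Kashlid, and 8 and 1 for LBD. MTSS1, an actin and membrane bending protein, had log2 fold changes of -2.12 ± 0.25, -2.55 ± 0.27 and -2.45 ± 0.26 for SUN2KO, Kashlid and LBD. HEY1, a transcriptional repressor downstream of Notch, had -1.44 ± 0.15, -0.99 ± 0.14 and -1.21 ± 0.14. As on the short arm, the surroundings were mildly lower by median: the 10 neighbours of MMP16 had -0.31, -0.36 and -0.25, and those of SNTB1 -0.23, -0.35 and -0.33. The 10 neighbours of CRISPLD1, with ZFHX4 among them, had medians of -0.29, -0.21 and -0.36. Single neighbours scattered more, as around SNTB1 in Kashlid, from -0.80 for HAS2 to 1.03 for DEPTOR.

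The long arm also held the genes that were highest over WT. ZNF704, a zinc finger gene at 81 Mb, had 4 and 4 counts in WT, 49 and 43 for SUN2KO, 32 and 47 for Kashlid, and 33 and 33 for LBD. PAG1, a membrane adaptor of Src family kinases in the same window, had 8 and 3 counts in WT, 21 and 22 for SUN2KO, 16 and 21 for Kashlid, and 32 and 35 for LBD. MATN2, the matrix protein matrilin 2, had log2 fold changes of 1.36 ± 0.18, 1.64 ± 0.18 and 1.41 ± 0.18. CCAT1, a long noncoding RNA transcribed upstream of MYC, was at 133 and 147 CPM in WT, 229 and 217 for SUN2KO, 229 and 189 for Kashlid, and 201 and 189 for LBD.

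MYC itself (128748315 to 128753680) was above WT in every modified library. Its level was 275 and 270 CPM in WT, 417 and 380 for SUN2KO, 624 and 530 for Kashlid, and 479 and 465 for LBD, with log2 fold changes of 0.55 ± 0.06, 1.08 ± 0.06 and 0.79 ± 0.06. The groups did not overlap, and the order was WT, SUN2KO, LBD and Kashlid. Of the 22 members among the genes of 8q24 around MYC, 2 were higher and 9 lower in SUN2KO, 2 and 14 for Kashlid, and 2 and 13 for LBD. Of all tested genes, 17.5, 21.7 and 19.0% were higher and 19.1, 22.7 and 21.0% lower in the 3 lines. Of all 446 members, 4.71, 7.4 and 6.5% were higher and 46.0, 47.8 and 50.7% lower. The medians of the 22 genes were -0.21, -0.28 and -0.29, so MYC stood above WT while the median gene around it stood below. The count of 9 lower in SUN2KO was 5 without SUN2KO replicate 2. ST3GAL1, a sialyltransferase, had -0.98 ± 0.09, -0.68 ± 0.09 and -0.65 ± 0.09, and FBXO32, a muscle-atrophy F-box protein, had 1.24 ± 0.37, 1.00 ± 0.38 and 0.84 ± 0.39.

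**Figure D5:**
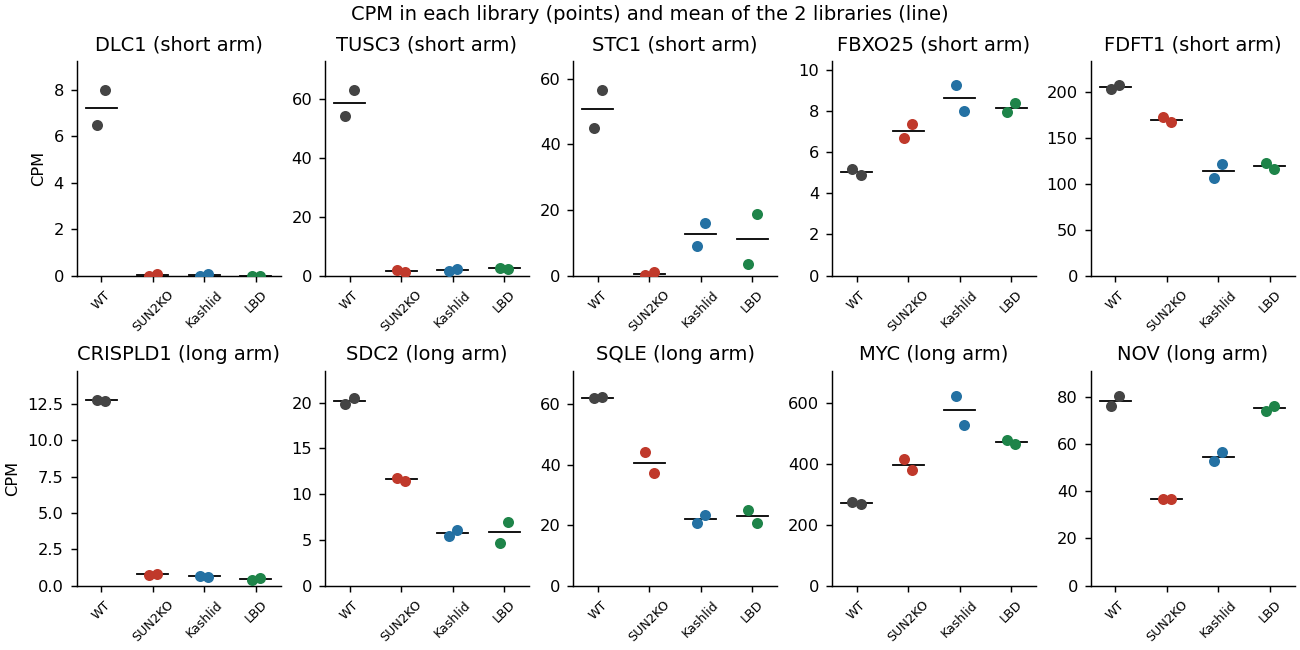
Level in CPM (vertical axes, each starting at 0) of 5 short-arm and 5 long-arm members in the 8 libraries, grouped as WT, SUN2KO, Kashlid and LBD, with each point 1 library and each line the mean of 2. TUSC3 stands at 54.3 and 63.2 CPM in WT and at most at 2.72 in the other libraries, while MYC lies between 380 and 624 in the modified lines and at 275 and 270 in WT.

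By position and role, the 26 genes of the 8p11-p12 region that is often amplified in breast cancer were mostly lower. None was higher in any line, and 17 were lower in SUN2KO, 19 for Kashlid and 21 for LBD, beside 19.1, 22.7 and 21.0% of all tested genes. These shares are the background of every count of genes lower than WT in the lists that follow, and 17.5, 21.7 and 19.0% that of genes higher. All list genes are members, however, and of all 446 members 46.0, 47.8 and 50.7% were lower. The shares of members higher were 4.71, 7.4 and 6.5%. Whether any list differed from the other members was not tested, so its counts are not read as a trait of its own. The medians were -0.33, -0.36 and -0.43. ADAM9, a membrane sheddase, was at 283 and 285 CPM in WT, 177 and 171 for SUN2KO, 161 and 150 for Kashlid, and 161 and 157 for LBD. SLC20A2, a phosphate transporter, had log2 fold changes of -0.80 ± 0.13, -0.83 ± 0.13 and -0.99 ± 0.13. PPAPDC1B, a lipid phosphatase, had -0.70 ± 0.10, -0.42 ± 0.10 and -0.42 ± 0.10, and PLEKHA2, a phosphoinositide-binding adaptor, had -0.63 ± 0.07, -0.63 ± 0.07 and -0.67 ± 0.07. FGFR1, the growth factor receptor of this region, was named after its values had been seen and was at -0.00 ± 0.08, -0.05 ± 0.08 and -0.07 ± 0.08.

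Among the 14 short-arm members named as tumour suppressor candidates, 9 were lower in SUN2KO, 8 for Kashlid and 7 for LBD, and none was higher (background 19.1, 22.7 and 21.0% lower). Their medians were -0.29, -0.24 and -0.25, beside -0.30, -0.29 and -0.28 for the whole arm. The 8 for Kashlid were 5 without WT replicate 2. DUSP4, a phosphatase of MAP kinases, was at 140 and 143 CPM in WT, 83.1 and 73.6 for SUN2KO, 136 and 101 for Kashlid, and 114 and 121 for LBD. BNIP3L, a mitophagy receptor, had log2 fold changes of -0.74 ± 0.11, -0.17 ± 0.10 and -0.22 ± 0.10. Of the 3 measured TRAIL receptors, which carry or buffer a death signal at the cell surface, 2 were lower in each line against the same background and none was higher, with medians of -0.37, -0.19 and -0.20. Fewer passed in some fits without 1 library in each of the comparisons. Such fits leave 1 library in a group, so reliance on a given library and the smaller number of libraries cannot be told apart. The death receptor TNFRSF10A had -0.44 ± 0.10, -0.34 ± 0.10 and -0.32 ± 0.10, and TNFRSF10B had -0.37 ± 0.06, -0.17 ± 0.06 and -0.20 ± 0.06.

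Of 28 genes of DNA replication, repair and chromosome maintenance, 18 were lower in SUN2KO, 21 for Kashlid and 22 for LBD and none was higher, beside 19.1, 22.7 and 21.0% of all tested genes lower (medians -0.23, -0.29 and -0.33). The 18 for SUN2KO were 10 without either SUN2KO library and 11 without WT replicate 1. UBE2V2, a ubiquitin-conjugating enzyme variant of DNA damage tolerance, had -0.73 ± 0.07, -0.70 ± 0.07 and -0.66 ± 0.07, and the transcription factor E2F5 had -0.86 ± 0.20, -0.84 ± 0.20 and -0.83 ± 0.20. Of 24 translation genes, 12, 16 and 15 were lower and none higher against that background (medians -0.15, -0.26 and -0.28, beside -0.23, -0.24 and -0.25 over all members). MRPL15, a mitochondrial ribosomal protein, had -0.66 ± 0.11, -0.85 ± 0.11 and -0.63 ± 0.11, and EIF4EBP1, a repressor of cap-dependent translation, had -0.50 ± 0.07, -0.28 ± 0.07 and -0.45 ± 0.07. Of 23 mitochondrial genes, 12, 12 and 14 were lower and none higher (medians -0.20, -0.27 and -0.30).

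The 25 lysosome, endosome and trafficking genes had medians of -0.27, -0.40 and -0.51, with 14, 17 and 18 lower and 1, 0 and 1 higher, beside 19.1, 22.7 and 21.0% lower among all tested genes. RAB2A, a GTPase of transport between the endoplasmic reticulum and the Golgi, was at 85.8 and 95.5 CPM in WT, 59.3 and 55.3 for SUN2KO, 52.5 and 55.3 for Kashlid, and 57.8 and 51.8 for LBD. ATP6V1H, a subunit of the proton pump of lysosomes, had log2 fold changes of -0.91 ± 0.11, -1.03 ± 0.11 and -1.07 ± 0.11, and ASAH1, the lysosomal acid ceramidase, had -0.59 ± 0.06, -0.73 ± 0.06 and -0.60 ± 0.06. The 21 matrix, secreted and adhesion genes had the lowest medians of the 12 lists in SUN2KO and Kashlid, at -0.45 and -0.56, and -0.46 for LBD, with 13, 16 and 15 lower and 2 higher in each against the same background. STC1, MMP16, SNTB1 and CRISPLD1 belong to them.

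Among 32 kinases, phosphatases and signalling adaptors, 16 were lower and 2 higher in SUN2KO, 18 and 3 for Kashlid, and 17 and 4 for LBD (medians -0.20, -0.22 and -0.26), beside 19.1, 22.7 and 21.0% lower and 17.5, 21.7 and 19.0% higher among all tested genes. The lower count was 10 for SUN2KO without either SUN2KO library and 11 for Kashlid without either WT library. Among 36 transcription and chromatin genes, 18 and 2, 16 and 3, and 17 and 2 were lower and higher against that background (medians -0.18, -0.17 and -0.23). The lower count for SUN2KO was 9 without SUN2KO replicate 2 and 11 without WT replicate 2, and for LBD it was 11 without LBD replicate 1. The 14 zinc finger genes, which lie mostly at the end of the long arm, were near WT in all 3 lines, with medians of -0.05, -0.05 and -0.03 and at most 2 higher and 1 lower. ZNF7 had -0.22 ± 0.08, -0.25 ± 0.08 and -0.17 ± 0.08.

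Comparing the modified lines with each other leaves WT out of the contrast, and there both arms were close to level. The WT libraries still entered the filter, the scaling and the estimate of the spread in these fits. The short-arm median was -0.02 for Kashlid against SUN2KO, -0.01 for LBD against SUN2KO and 0.01 for LBD against Kashlid. The long-arm medians were -0.03, -0.05 and -0.03, beside 0.01, 0.00 and -0.01 over all tested genes. With library size only in place of TMM scaling, the short-arm medians against SUN2KO became 0.02 for Kashlid and 0.02 for LBD, and the long-arm medians 0.01 and -0.02. None of the 28 windows was shifted by more than 0.3 in any of these comparisons, whereas 10, 12 and 11 windows were against WT in SUN2KO, Kashlid and LBD. By rank among 23 chromosomes, chromosome 8 was nonetheless the 4th lowest in Kashlid against SUN2KO and the 2nd lowest in LBD against SUN2KO, at medians of -0.02 and -0.03.

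Fewer genes changed between lines than differed from WT. In Kashlid against SUN2KO, 14 short-arm genes rose and 18 fell, and 25 long-arm genes rose and 26 fell, beside 8.92% and 9.13% of all tested genes. In LBD against SUN2KO, 14 short-arm genes rose and 7 fell, and 12 long-arm genes rose and 32 fell, beside 6.69% and 6.79%. In LBD against Kashlid, 1 short-arm gene rose and 1 fell, and 5 long-arm genes rose and 4 fell, beside 1.63% and 1.28%. The directions depended on the scaling: with library size only, Kashlid against SUN2KO had 15 rises and 12 falls on the short arm and 30 and 20 on the long arm, and LBD against SUN2KO had 12 rises and 17 falls on the long arm. Without LBD replicate 1 the latter were 14 and 18. The counts also changed when single libraries were left out. Such a fit leaves 1 library in a group and fewer residual degrees of freedom, so fewer genes can pass anywhere in the genome. Shares of all tested genes are not given for these fits, so that loss and reliance on a given library cannot be told apart. Without SUN2KO replicate 1, the totals in Kashlid against SUN2KO went from 32 to 16 on the short arm and from 51 to 22 on the long arm. In LBD against SUN2KO they went from 21 and 44 to 7 and 15 without SUN2KO replicate 1, to 7 and 18 without LBD replicate 2, and to 13 and 21 without SUN2KO replicate 2. The 9 long-arm genes of LBD against Kashlid became 2 without LBD replicate 2, 4 without LBD replicate 1 and 17 without Kashlid replicate 2. The 2 short-arm genes became 1 without either LBD library, 0 without Kashlid replicate 1 and 5 without Kashlid replicate 2.

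Several short-arm genes changed between the lines by edgeR's quasi-likelihood test with Benjamini-Hochberg adjustment. STC1 rose from SUN2KO to Kashlid by 4.38 ± 0.66 (adjusted p = 6.75e-05) and to LBD by 4.21 ± 0.68 (adjusted p = 0.000161) on the log2 scale. The size rested on single libraries: the rise to Kashlid was 3.60 without SUN2KO replicate 1 and 6.21 without SUN2KO replicate 2, and the rise to LBD ran from 2.56 without LBD replicate 2 to 6.03 without SUN2KO replicate 2, all still passing. DUSP4 rose by 0.59 ± 0.09 in both (adjusted p = 0.000101 and 0.000132). RBPMS, an RNA-binding protein, fell by 0.92 in Kashlid (SE 0.19, adjusted p = 0.00146). SCARA3, a scavenger receptor of the oxidative stress response, was at 26.5 and 31.1 CPM in WT, 22.1 and 21.0 for SUN2KO, 11.8 and 12.3 for Kashlid, and 17.3 and 12.1 for LBD. It fell by 0.84 from SUN2KO to Kashlid (adjusted p = 0.000173) and by 0.55 to LBD (adjusted p = 0.00797, and 0.217 without LBD replicate 2 and 0.0889 without SUN2KO replicate 1). SOX7, a transcription factor of the endothelial lineage, rose by 0.65 ± 0.19 in LBD (adjusted p = 0.0278), a call lost in DESeq2 (0.104) and without LBD replicate 1 (0.203) or either SUN2KO library (0.197 and 0.0845).

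FDFT1 and SQLE, enzymes of cholesterol synthesis, were lower in the truncation lines than in SUN2KO. FDFT1 on the short arm, the squalene synthase, was at 203 and 207 CPM in WT, 172 and 167 for SUN2KO, 106 and 121 for Kashlid, and 122 and 116 for LBD. SQLE on the long arm, the squalene epoxidase that acts next, was at 61.9 and 62.3 in WT, 44.0 and 37.1 for SUN2KO, 20.8 and 23.2 for Kashlid, and 25 and 20.7 for LBD. For both genes the Kashlid and LBD libraries lay below the SUN2KO libraries, which lay below WT. FDFT1 fell by 0.58 from SUN2KO to Kashlid (SE 0.06, adjusted p = 5.71e-07, edgeR) and by 0.51 to LBD (SE 0.06, adjusted p = 3.35e-06). SQLE fell by 0.88 (SE 0.10, adjusted p = 2.27e-06) and by 0.83 (SE 0.10, adjusted p = 5.61e-06). The pairing of the 2 genes was noticed after their values had been seen, and other genes of this synthesis were not examined.

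On the long arm, SDC2, the heparan sulfate proteoglycan syndecan 2, was at 19.8 and 20.5 CPM in WT, 11.8 and 11.4 for SUN2KO, 5.38 and 6.10 for Kashlid, and 4.63 and 7 for LBD. It fell by 1.01 from SUN2KO to Kashlid (SE 0.16, adjusted p = 0.000148, edgeR) and by 1.00 to LBD (SE 0.16, adjusted p = 0.000217). NOV, the matricellular protein CCN3, moved the other way: 76.0 and 80.3 CPM in WT, 36.6 and 36.8 for SUN2KO, 52.7 and 56.5 for Kashlid, and 74.0 and 75.9 for LBD. It rose from SUN2KO to Kashlid by 0.57 ± 0.07 (adjusted p = 5.80e-06), to LBD by 1.03 ± 0.07 (adjusted p = 8.08e-10), and from Kashlid to LBD by 0.46 ± 0.07 (adjusted p = 0.00077). Relative to WT, NOV stood at a log2 fold change of -1.09 ± 0.07 for SUN2KO, -0.52 ± 0.07 for Kashlid and -0.06 ± 0.07 for LBD.

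MAL2, a protein of membrane transport in epithelial cells, was at 56.1 and 57.3 CPM in WT, 59.2 and 58.5 for SUN2KO, 96.3 and 93.8 for Kashlid, and 99.3 and 98.3 for LBD. It rose by 0.69 ± 0.06 over SUN2KO in Kashlid (adjusted p = 4.76e-08, edgeR) and by 0.75 ± 0.06 in LBD (adjusted p = 1.46e-08). MYC rose over SUN2KO by 0.53 ± 0.06 in Kashlid (adjusted p = 1.65e-06) and by 0.24 ± 0.06 in LBD (adjusted p = 0.00807). It fell by 0.29 from Kashlid to LBD (SE 0.06, adjusted p = 0.0097), a call lost without LBD replicate 1 (0.0602), LBD replicate 2 (0.107) or Kashlid replicate 1 (0.109), and with the 2 groups fitted alone (0.0603). DEPTOR, an inhibitor of mTOR, rose over SUN2KO in Kashlid by 0.83 ± 0.19 (adjusted p = 0.00347). NDRG1, a stress-responsive gene, varied widely between replicates: 165 and 252 CPM in WT, 119 and 160 for SUN2KO, 238 and 370 for Kashlid, and 196 and 442 for LBD. Its rises over SUN2KO (adjusted p = 0.00256 for Kashlid and 0.00199 for LBD) were lost in DESeq2 (0.165 and 0.159) and without SUN2KO replicate 1 (0.0985 and 0.0949), and in LBD also without LBD replicate 2 (0.192).

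Between Kashlid and LBD little differed. SLC7A2, a transporter of cationic amino acids on the short arm, fell by 0.37 (SE 0.07, adjusted p = 0.00716, edgeR), and lost its call without LBD replicate 1 (0.0636), LBD replicate 2 (0.0741) or Kashlid replicate 1 (0.0805). CTSB rose by 0.20 ± 0.05 (adjusted p = 0.0348), and the range without LBD replicate 1, LBD replicate 2 or Kashlid replicate 1 was 0.114 to 0.177, with 0.115 for the 2 groups fitted alone. MFSD3, a membrane transporter near the long-arm end, fell by 0.38 (SE 0.10, adjusted p = 0.0411). That call was lost in DESeq2 (0.097), with the 2 groups fitted alone (0.0885) and without any single library of the 2 groups (0.072 to 0.188). PSCA, a cell surface antigen anchored by a lipid, rose by 0.44 ± 0.06 (adjusted p = 0.000592) and kept its call in every fit run.

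By list, the genes of DNA replication, repair and chromosome maintenance fell in 6 of 28 cases in Kashlid against SUN2KO, with a median of -0.04, and in 8 of 28 in LBD against SUN2KO, with a median of -0.09, beside 9.13% and 6.79% of all tested genes. The 6 falls were 2 without SUN2KO replicate 1, and the 8 falls were 0 without SUN2KO replicate 1, 1 without LBD replicate 2, and 4 without SUN2KO replicate 2, with library size only and in DESeq2. PBK, a mitotic kinase, fell by 0.48 in Kashlid (adjusted p = 0.000204, edgeR). CDCA2 and ESCO2, a mitotic phosphatase regulator and a cohesin acetyltransferase named after their values had been seen, fell by 0.42 and 0.37 in Kashlid (adjusted p = 0.000431 and 0.00415) and by 0.33 and 0.36 in LBD (adjusted p = 0.0051 and 0.00681). Neither LBD fall passed without SUN2KO replicate 1 or without LBD replicate 2. The matrix, secreted and adhesion genes had 3 rises and 8 falls of 21 in Kashlid against SUN2KO and 5 rises and 5 falls in LBD (background 8.92% and 9.13%, and 6.69% and 6.79%). The LBD rises were 2 without LBD replicate 2 or SUN2KO replicate 1 and 3 without SUN2KO replicate 2, and the LBD falls 3 without SUN2KO replicate 1. Of the 24 translation genes, 4 fell in LBD against SUN2KO, beside 6.79% of all tested genes, all of them ribosomal proteins (RPL7, RPL8, RPL30 and RPS20, by 0.15 to 0.22). Without LBD replicate 1, LBD replicate 2 or SUN2KO replicate 1 1 gene of the list passed as lower, and 2 did without SUN2KO replicate 2.

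Markers of other cells were checked beside these values. The luminal breast list (6 genes, mainly the keratins KRT8 and KRT18) summed to 1490 to 1530 CPM in WT, 2360 to 2390 for SUN2KO, 1620 to 1800 for Kashlid and 1960 to 1990 for LBD. The sum was higher in all 3 lines than in WT, carried by the keratins, while MLPH went the other way, at 6.18 and 8.63 CPM in WT and 1.07 to 3.53 in the modified lines, and KRT19 was at 0 to 0.284 throughout. The 6 genes for hormone receptors and luminal or epithelial identity that this line has at or near 0 (ESR1, PGR, ERBB3, CDH1, GATA3 and TFF1) summed to 13.0 to 14.5 CPM in WT, 16.1 to 19.8 for SUN2KO, 21.0 to 22.0 for Kashlid and 20.3 to 23.4 for LBD. ERBB3 made up most of that sum, and PGR was at 0 in the modified lines. The part of these markers in the chromosome 8 values was not tested. The list of 7 mesenchymal MDA-MB-231 genes summed to 2050 to 2090 in WT, 1980 to 2000 for SUN2KO, 1780 to 1890 for Kashlid and 2100 to 2120 for LBD. Within that sum, VIM went from 400 and 408 CPM in WT to 281 to 341 in the modified lines. CAV1 went from 89.2 and 93.9 to 48.0 to 64.2. CD44 and MSN were higher than WT in both LBD libraries, with CD44 at 407 and 420 against 329 and 337. SPARC was higher than WT in SUN2KO and lower in Kashlid and LBD. The list of 7 embryonic kidney genes, for the HEK293T cells handled in the same study, summed to at most 20.5 CPM in any library. LIN28A, NEFM and PAX2 were at 0 in the modified lines and had at most 3 counts in a WT library. The other members moved in both directions. TUBB2B was at 9.21 and 8.92 CPM in WT and 4.45 to 5.53 in the modified lines, and INA was also lower. EYA1 had 1 and 1 counts in WT and 11 to 28 in the modified libraries. LIN28B had 0 and 0 counts in WT and 6 to 17 in the modified libraries.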

How the data were processed

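Total RNA of 10000000 MDA-MB-231 cells per sample went into NEBNext Ultra libraries sequenced as paired-end reads, per the labels' protocols. The submitters' processing notes name Trim Galore, STAR 2.7.1a, bedtools 2.24.0, HTSeq and DESeq2, with the genome build hg19. Annotation version and strandedness are not given in the sources used, and overlapping genes or close paralogs may therefore share reads. The authors deposited 1 table of raw read counts for the 8 libraries. Gene positions, log2 fold changes and p-values come from the authors' deposited tables of comparisons with WT; their starts count from 0 and were raised by 1. In those tables, 12 unnamed per-library columns were left out.

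Counts were fitted with edgeR 4.0.16 (R 4.3.3), using TMM scaling and the filterByExpr filter, 1 term per group and 4 residual degrees of freedom. The quasi-likelihood test was two-sided. Each SE was taken as the absolute log2 fold change divided by the square root of the F statistic of that test. The p-values were adjusted by Benjamini-Hochberg over the 14016 genes tested, with a threshold of 0.05. CPM use TMM-scaled library sizes, and library medians add 0.5 CPM. The steps were tested on simulated data. Total counts of 16570099 to 18814795 set the precision. In each arm, the rule for naming genes took the 3 strongest differences in either direction from WT and the 2 strongest between lines, given a passing test, a mean level of 5 CPM or more and a product name. From each list it took up to 4. The members and 12 lists were chosen with earlier results of these data known. Alternatives were other scalings, filters, DESeq2 1.42.0, the 2 groups alone, a replicate block, and leaving out each library or the members from 40 to 50 Mb. RefSeq gene types matched 437 members.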

Additional observations from a re-analysis of the deposited data

Results flagged for a closer look

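For 2 members the effects against WT had opposite signs in 2 lines, and the difference between those lines passed edgeR's quasi-likelihood test. Both were flagged by these same values and p-values, which are therefore no separate support. SLC7A2 was above WT in Kashlid (0.31 ± 0.07, log2 fold change ± SE) and below it in SUN2KO (-0.28 ± 0.07), a difference of 0.59 (adjusted p = 5.49e-06). The SUN2KO value of SLC7A2 was -0.19 without SUN2KO replicate 2. The SLC7A2 level was 140 and 137 CPM in WT, 121 and 108 for SUN2KO, 188 and 155 for Kashlid, and 134 and 133 for LBD. PSCA was above WT in SUN2KO (0.21 ± 0.06) and below it in Kashlid (-0.68 ± 0.06) and LBD (-0.24 ± 0.06), with differences from SUN2KO of -0.89 (adjusted p = 1.68e-09) and -0.45 (adjusted p = 2.27e-05). Its level was 152 and 159 CPM in WT, 182 and 178 for SUN2KO, 94.7 and 99.8 for Kashlid, and 124 and 141 for LBD. In each case the libraries of the 2 lines compared did not overlap.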

How the results depend on the processing

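No arm median against WT changed sign in any alternative. Median-ratio factors and leaving out the members at 40 to 50 Mb moved no arm median beyond the spread between libraries. In SUN2KO against WT, the long-arm median was -0.21 with TMM factors from genes off chromosome 8 and -0.17 over members of at least 800 counts. In Kashlid against WT, library size only gave -0.25 on the short arm and -0.17 on the long arm, and members of at least 800 counts gave -0.20 on the long arm. In LBD against WT, library size only gave -0.25 and -0.20, and the short-arm median was -0.31 with the stricter filter and -0.32 over members of at least 800 counts. In Kashlid against SUN2KO, library size only gave medians of 0.02 and 0.01, and DESeq2 passed 21 short-arm genes. In LBD against SUN2KO, library size only gave 0.02 and -0.02 with 29 long-arm genes passing, members of at least 800 counts gave -0.03 on the short arm, and DESeq2 passed 24 long-arm genes. In LBD against Kashlid, 6 short-arm and 21 long-arm genes passed with no filter, and 1 and 2 with the 2 groups alone. The cause of these changes was not tested. Shares of all tested genes are not given for the alternatives, so their numbers of genes passing have no background of their own.

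Same-numbered replicates did not deviate together (correlations of deviations from the group means between -0.007 and 0.084), so the numbers were not taken as pairs. With the replicate number as a block, 17 long-arm genes passed in LBD against Kashlid. The other 23 of 24 arm results, medians and counts of genes passing, stayed as they were within their limits.

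Leaving out each library in turn gave these ranges. Short-arm medians ran from -0.31 to -0.29 in SUN2KO against WT, -0.32 to -0.28 in Kashlid and -0.31 to -0.26 in LBD, and long-arm medians from -0.20 to -0.19, -0.22 to -0.20 and -0.24 to -0.23. Genes passing ran from 55 to 67, 71 to 84 and 70 to 79 on the short arm and from 96 to 106, 120 to 148 and 121 to 133 on the long arm. Between Kashlid and SUN2KO, the medians ran from -0.04 to -0.01 and from -0.05 to 0.00, and the genes passing from 16 to 31 and from 22 to 47. Between LBD and SUN2KO, they ran from -0.01 to 0.00 and from -0.06 to -0.04, with 7 to 16 and 15 to 32 genes. Between LBD and Kashlid, they ran from 0.01 to 0.03 and from -0.04 to -0.01, with 0 to 5 and 2 to 17 genes.

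Of 187 results of single named genes, 22 lost their call in DESeq2, and none reversed in any alternative. With 2 libraries a group, genes of few counts are the least precise.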
